A study of Mus musculus with 12 samples.

Results

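The 9 genes described here code for core histone variants that can be made outside S phase, and they were picked by their symbols in the authors' table of CD8 T cells, which lists 24421 genes. They are H2afz and H2afv (H2A.Z), H2afx (H2A.X), H2afj (H2A.J), H2afy and H2afy2 (macroH2A), H3f3a and H3f3b (H3.3), and Cenpa (the centromeric H3). Of these 9, 8 carried an adjusted p-value and H2afy2 did not. Polyadenylated RNA was sequenced with paired ends from lymphocytes sorted from the spleens of C57BL/6 mice (B, CD4 T and CD8 T), in 6 groups of 2 animals, each sample from a sort of 500000 cells. The groups compared here are CD8 T cells of WT mice (animals 1, female, and 4, male) and of cTKO mice (animals 5, female, and 10, male). In cTKO mice, per the series title and the reads below, H1 linker histone genes are deleted conditionally. The labels give no age, no Cre driver and no floxed allele, and values of the other sorted cells were not analysed here.

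Most histone genes are switched on with DNA replication and yield messages that end in a stem-loop in place of a poly(A) tail. The variant genes can yield polyadenylated messages outside S phase and are therefore the core histone genes that a poly(A) library reports best. H2A.Z marks promoters and regulatory regions, H3.3 replaces H3 where nucleosomes turn over, H2A.X is phosphorylated around DNA breaks, macroH2A carries a large globular domain and is linked to silent chromatin, and CENP-A defines the centromere.

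Counts per library were worked back from the deposited means and fold changes for 18094 of the 18153 genes with a read (99.7%), and for all 9 variant genes. The libraries held 18274805 and 12331293 counts in WT and 16003093 and 11283831 in cTKO over these genes. The mean of Ddx3y, a Y-linked gene, with 1 library per genotype taken to hold none, was met by whole counts in 1 way alone, 1904 in the smaller WT and 1652 in the smaller cTKO library, so the smaller library of each genotype is that of the male animal and library size and sex cannot be told apart. Below, values run in the order WT female, WT male, cTKO female, cTKO male. Hist1h1c had 41, 56, 0 and 0 counts, Hist1h1d 5, 11, 0 and 0, and Hist1h1e 64, 112, 0 and 0. The deposited header does not name the numerator, and fold changes are read as cTKO over WT because these deleted genes are lower on that side, so an inverted reading would turn every direction below. The sort is reflected in its markers: 2 CD8 T cell markers with counts summed to 33718, 35861, 26452 and 33344 normalized counts (counts divided by the library's size factor), while the 2 CD4 T cell markers summed to 8.28 to 27.7, with Cd4 at 0 counts in the cTKO male library. NK cell markers (3 of 3 found) summed to 1052 and 1478 in WT and 6106 and 5815 in cTKO. Most of this sum was Eomes (902, 1336, 4757 and 4719), which CD8 T cells also express. Klrb1c had 148, 137, 1330 and 1094 normalized counts and was higher in both cTKO libraries. Its log2 fold change was 3.08 (adjusted p 7.28e-18 by DESeq2) in the authors' deposited table. The more specific Ncr1 had 1.65, 4.62, 18.2 and 1.24 normalized counts and overlapped. B cell markers (4 of 4, none at 0 in any library) summed to 1373 and 970 in WT and 190 and 220 in cTKO, and myeloid markers (4 of 4) to 46.1 and 50.8 in WT and 434 and 186 in cTKO. Most of the myeloid sum was Itgam, with 28.0, 34.6, 359 and 171 normalized counts. Lyz2 (16.5, 12.7, 35.6 and 7.45) overlapped, and Csf1r (1.65, 3.46, 20.7 and 7.45) was higher in both cTKO libraries. S100a8 had 22 counts in the cTKO female library and 0 in the other 3. The part of these other cells in the values below was not tested, and in bulk RNA fewer cells of a type and less RNA per cell cannot be told apart.

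Both large pairs of variant genes code for nearly or wholly the same protein from different DNA, which is why their messages can be counted apart. H3f3a (Entrez 15078, GRCm38 chromosome 1, 180802560 to 180813605, minus strand, 4 exons) and H3f3b (Entrez 15081, chromosome 11, 116021961 to 116026039, minus strand, 4 exons) share 136 of 136 residues while 95 of 408 coding bases differ. H2afz (Entrez 51788, chromosome 3, 137864487 to 137866922, plus strand, 5 exons) and H2afv (Entrez 77605, chromosome 11, 6427226 to 6444511, minus strand, 5 exons) differ at 3 of 128 residues and at 80 of 384 coding bases. The longest run of bases that the transcripts share is 23 for H3f3a and H3f3b and 14 for H2afz and H2afv. The first 120 coding bases of each gene (GENCODE transcripts on GRCm38, 5′ to 3′) are shown to make this visible, with the bases that differ within the pair in capitals.
H3f3a: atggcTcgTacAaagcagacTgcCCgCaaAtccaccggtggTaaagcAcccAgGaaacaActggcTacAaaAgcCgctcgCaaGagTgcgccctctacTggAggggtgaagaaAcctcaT
H3f3b: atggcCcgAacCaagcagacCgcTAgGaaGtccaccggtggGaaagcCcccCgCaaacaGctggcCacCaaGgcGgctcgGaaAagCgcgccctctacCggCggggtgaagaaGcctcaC
H2afz: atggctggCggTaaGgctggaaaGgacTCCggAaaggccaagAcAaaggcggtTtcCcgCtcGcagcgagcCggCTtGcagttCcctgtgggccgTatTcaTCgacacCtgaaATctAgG
H2afv: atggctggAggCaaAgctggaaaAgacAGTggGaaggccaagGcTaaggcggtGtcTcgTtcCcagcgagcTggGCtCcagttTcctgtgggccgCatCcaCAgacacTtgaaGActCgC
In these stretches 24 bases differ between H3f3a and H3f3b and change no residue, and 28 differ between H2afz and H2afv and change 2. Processed copies of such genes elsewhere in the genome could still share reads with them, and how the authors' counting treated reads with several matches is not given in the sources used here.

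None of the 8 tested variant genes passed the authors' adjusted p of 0.05 in either direction, in a table where 13.4% of the 12972 tested genes did (9.77% higher and 3.61% lower). Unadjusted p-values under 0.05 in the authors' deposited table were found for 2 of the 8, H2afv and H2afy, beside 26.3% of all tested genes. By limma on the recovered counts of all 4 libraries the members called were likewise 0. With voom weights 1193 of 12913 genes were called higher and 343 lower. The unadjusted p by limma was 0.0361 for H2afv and 0.0469 for H2afy with voom weights, and 0.0414 and 0.0542 with a trend. With sex as a term (chosen after seeing the data) it was 0.0511 and 0.0543. Of the 8, 4 had a positive and 4 a negative log2 fold change in the authors' deposited table, with a median of -0.02 beside 0.04 over all tested genes. In the authors' deposited table the median over genes whose mean was 100 or more was -0.10, so a fold change near 0 lies slightly above that of most well-read genes. Precision was much alike for these genes, with log2 standard errors of 0.31 to 0.38 in the authors' deposited table. Among tested genes with standard errors in that range, the smallest estimated change that passed was 1.81-fold in the authors' deposited table. How small a true difference could be detected with 2 animals per genotype was not tested.

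**Figure D1:**
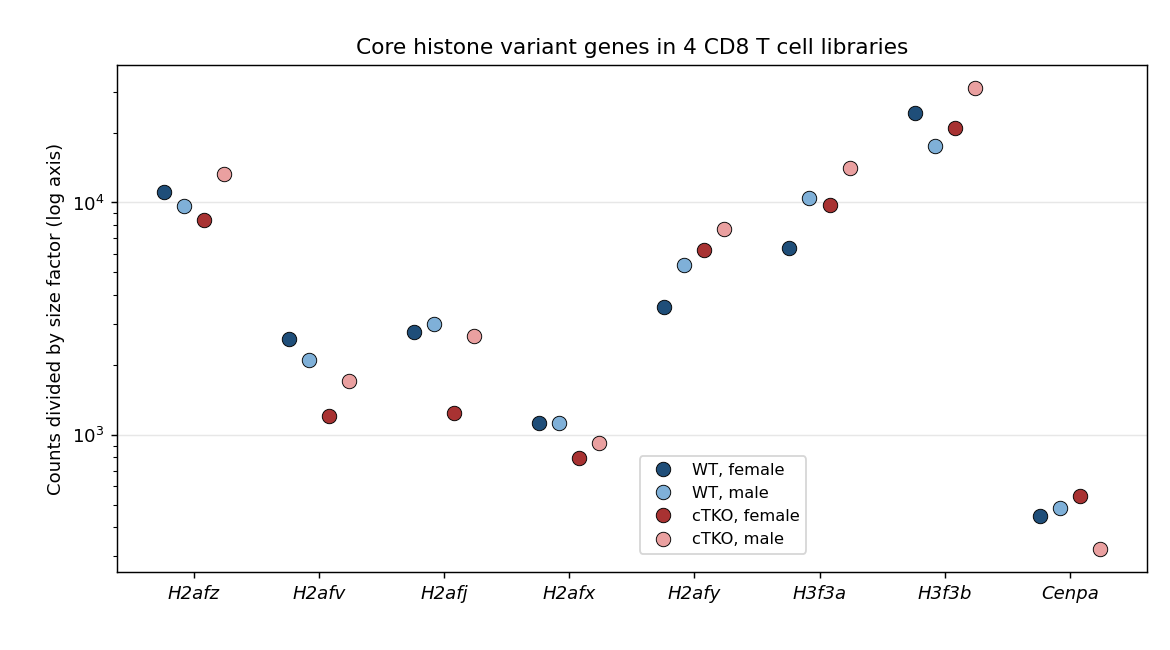
Normalized counts (log axis) of the 8 tested variant genes in the 4 CD8 T cell libraries, 1 point per library. H2afv, H2afj and H2afx lie lower in both cTKO libraries than in both WT libraries, H2afy lies higher, and the libraries of the genotypes overlap for H2afz, H3f3a, H3f3b and Cenpa.

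The genotypes did not overlap for 4 of the 8 genes, H2afy higher and H2afv, H2afj and H2afx lower in cTKO. Such separation was common in these libraries, at 59.6% of the 12913 tested genes with recovered counts and 58.5% of genes with a mean of 400 to 25000, the range of these variants, so it does not set them apart. Within each sex the direction was the same for 5 of the 8 genes and opposite for H2afz, H3f3b and Cenpa.

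H2A.Z is deposited as a dimer with H2B by the SRCAP and p400 complexes, and its messages came mostly from H2afz. H2afz had 13511, 8335, 10198 and 10712 counts, or 11125, 9624, 8446 and 13307 normalized counts. The lowest and the highest library were both cTKO, so WT lay inside the cTKO range. Its log2 fold change was 0.07 (SE 0.32, 95% interval -0.57 to 0.70, adjusted p 0.922 by DESeq2) in the authors' deposited table. Within sexes the log2 difference of H2afz was -0.40 between females and 0.47 between males, and by limma the direction turned when the WT male library (-0.08) or the cTKO male library (-0.29) was left out.

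H2afv, the second H2A.Z gene, had the largest negative fold change of the 8. It had 3131, 1821, 1457 and 1377 counts, or 2578, 2103, 1207 and 1711 normalized counts, and each cTKO library lay below each WT library. In the authors' deposited table the log2 fold change was -0.68 (SE 0.32, 95% interval -1.32 to -0.05, that is 1.61-fold lower), with an unadjusted p of 0.0345 and an adjusted p of 0.150 by DESeq2. The log2 difference was -1.10 between females and -0.30 between males. By limma without the cTKO male library the log2 fold change of H2afv was -0.94. Over the alternatives with all 4 libraries H2afv did not pass.

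The balance of the H2A.Z genes was compared within libraries. The ratio of H2afz to H2afv counts within a library, which does not depend on size factors, was 4.32 and 4.58 in WT and 7.0 and 7.78 in cTKO. Both cTKO ratios exceeded both WT ratios, as ratios of 58.1% of all pairs of genes with a mean of 400 to 25000 also separated the genotypes, in either direction. The log2 ratio was 2.15 ± 0.06 in WT and 2.88 ± 0.11 in cTKO (SD, n = 2 each), a 1.66-fold difference, and 33.8% of those pairs separated by at least as much. The two-sided exact permutation p was 0.333, the smallest that 2 against 2 libraries can give, so no threshold of 0.05 could be met, and the difference of this pair is given as a description. The summed normalized counts of both genes overlapped, at 13704, 11727, 9653 and 15018.

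**Figure D2:**
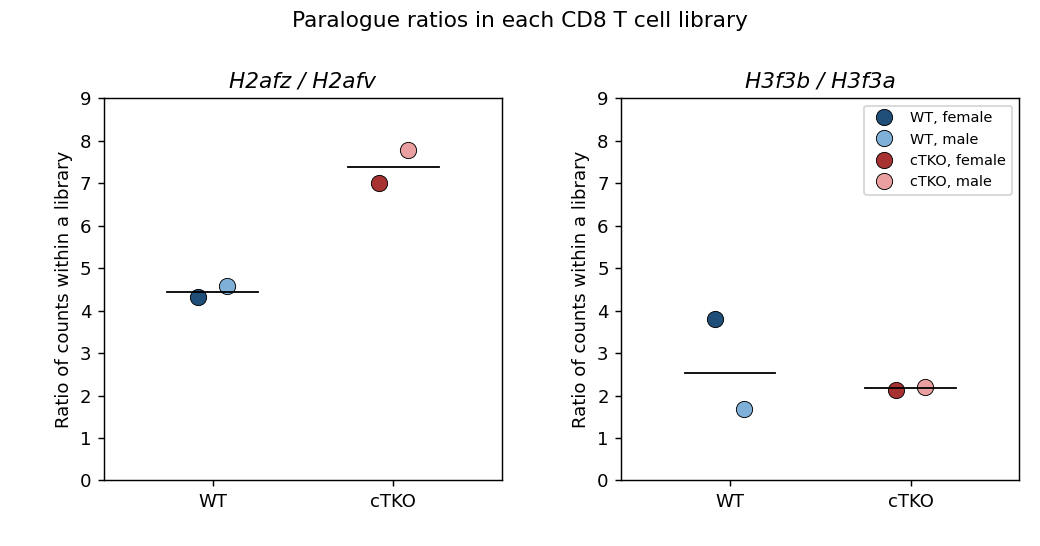
Ratio of H2afz to H2afv counts (left) and of H3f3b to H3f3a counts (right) within each CD8 T cell library, with 1 point per library and a line at the geometric mean of the genotype. The H2afz to H2afv ratio is 4.32 and 4.58 in WT and 7.0 and 7.78 in cTKO, while the WT values of H3f3b to H3f3a, 3.80 and 1.69, enclose both cTKO values.

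The promoters of this pair are shown because the genes code for nearly the same protein from separate promoters (RefSeq, GRCm38, 250 bases before to 50 after the start, 5′ to 3′ on the gene's strand). Capitals mark CCAAT or its reverse complement ATTGG, the box read by NF-Y in many promoters.
H2afz (chr3:137864237-137864536, plus strand): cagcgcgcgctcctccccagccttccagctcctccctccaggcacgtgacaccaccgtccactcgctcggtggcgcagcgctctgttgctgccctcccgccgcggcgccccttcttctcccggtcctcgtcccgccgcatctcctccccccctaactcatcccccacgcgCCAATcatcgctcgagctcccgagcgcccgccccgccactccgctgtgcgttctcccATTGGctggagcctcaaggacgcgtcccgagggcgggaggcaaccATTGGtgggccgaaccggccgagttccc
H2afv (chr11:6444394-6444693, minus strand): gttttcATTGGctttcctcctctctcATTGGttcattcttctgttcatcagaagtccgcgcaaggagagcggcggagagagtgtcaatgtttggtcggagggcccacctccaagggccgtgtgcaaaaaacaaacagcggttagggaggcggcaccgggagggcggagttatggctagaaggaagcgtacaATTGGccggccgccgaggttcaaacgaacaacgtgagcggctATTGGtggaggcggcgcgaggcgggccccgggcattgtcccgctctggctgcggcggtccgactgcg
The H2afz window held 3 such boxes and that of H2afv 4. Promoters were found for 8 of the 9 genes, and 7 of these 8 held at least 1 box on either strand, with none in the window of H2afy, beside 37.4% of 32851 RefSeq promoters of the same length. The letters TATAAA, searched on both strands, were found in the window of H3f3b alone, beside 13.6% of all promoters. These matches describe the letters of the windows only.

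H2A.X differs from other H2A chiefly by its tail, whose serine is phosphorylated by ATM, ATR and DNA-PK at DNA breaks. The last 30 coding bases of H2afx (Entrez 15270, chromosome 9, 44334715 to 44336077, plus strand, 1 exon) are shown with the 4 codons that hold this serine in capitals.
H2afx: aagaaggcctcgcaggccTCTCAGGAGTAC
H2afx had 1367, 979, 961 and 741 counts, or 1126, 1130, 796 and 921 normalized counts. The WT libraries were nearly equal and both cTKO libraries lay below them. The log2 fold change was -0.39 (SE 0.31, 95% interval -1.0 to 0.21, adjusted p 0.434 by DESeq2) in the authors' deposited table. The log2 difference of H2afx was -0.50 between females and -0.30 between males.

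H2A.J is a mammalian H2A variant known for its build-up in senescent cells. H2afj (Entrez 232440, chromosome 6, 136808248 to 136810074, plus strand, 1 exon) had 3352, 2609, 1494 and 2148 counts, or 2760, 3013, 1237 and 2668 normalized counts. The cTKO female library stood far below the other 3, and the cTKO male library lay just below WT. In the authors' deposited table the log2 fold change was -0.56 (SE 0.38, 95% interval -1.30 to 0.17, adjusted p 0.346 by DESeq2). The log2 difference was -1.16 between females and -0.18 between males. By limma the log2 fold change of H2afj was -1.22 without the cTKO male library and -0.11 without the cTKO female library. Its coding sequence matches that of H2afx at 90.2% of aligned bases, with a shared run of 51, so short reads from that run could not be told apart.

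MacroH2A messages were almost wholly H2afy. H2afy (Entrez 26914, chromosome 13, 56073622 to 56135626, minus strand, 9 exons) had 4311, 4671, 7556 and 6160 counts, or 3550, 5394, 6258 and 7652 normalized counts. Each cTKO library lay above each WT library, although the WT libraries differed from each other by more than the WT male did from the cTKO female. In the authors' deposited table the log2 fold change of H2afy was 0.64 (SE 0.32, 95% interval 0.00 to 1.27, 1.56-fold), with an unadjusted p of 0.0485 and an adjusted p of 0.186 by DESeq2. Its log2 difference was 0.82 between females and 0.50 between males. By limma with all 4 libraries the adjusted p was 0.170 with voom weights, 0.194 with an intensity trend and 0.179 with sex as a term.

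H2afy2, the second macroH2A gene (Entrez 404634, chromosome 10, 61738640 to 61784604, minus strand, 9 exons), had 0, 0, 4 and 2 counts. It carried no adjusted p, since its mean of 1.45 lay below the lowest mean that carried one (3.45), and its unadjusted p was 0.268 in the authors' deposited table. With 6 counts in all, no difference between genotypes could be resolved. Exons of H2afy2 overlap those of Aifm2 on the opposite strand, which had a mean of 78.8 normalized counts, and strand handling is not given in the sources used here. No ratio of H2afy to H2afy2 could be formed in WT without added counts.

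H3.3 is placed by HIRA at genes and by DAXX with ATRX at repeats, and both of its genes were among the most expressed variants. H3f3a had 7747, 9016, 11778 and 11335 counts, or 6379, 10411, 9755 and 14081 normalized counts. The WT male exceeded the cTKO female, so the genotypes overlapped, while each cTKO library exceeded the WT library of its sex. The log2 fold change of H3f3a was 0.51 (SE 0.34, 95% interval -0.17 to 1.18, adjusted p 0.357 by DESeq2) in the authors' deposited table. Transcripts annotated on the opposite strand, H3f3aos and Gm17275, overlap its exons.

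H3f3b had 29405, 15203, 25172 and 25010 counts, or 24213, 17555, 20848 and 31070 normalized counts. A second set of whole numbers met its mean and fold change, and the dispersion implied by its standard error chose this one. The cTKO male library was the highest and the cTKO female lay between the WT libraries. The log2 fold change of H3f3b was 0.31 (SE 0.33, 95% interval -0.33 to 0.96, adjusted p 0.584 by DESeq2) in the authors' deposited table. Its log2 difference was -0.22 between females and 0.82 between males. The ratio of H3f3b to H3f3a counts was 3.80 and 1.69 in WT and 2.14 and 2.21 in cTKO, so the WT libraries enclosed the cTKO ones (exact permutation p = 1, two-sided), and without the WT female library the log2 difference turned from -0.22 to 0.36. Summed, the H3.3 genes gave 30592, 27966, 30603 and 45151 normalized counts, with the cTKO male library high and the other 3 close together.

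CENP-A is loaded at centromeres by HJURP after mitosis, and its message follows the cell cycle. Cenpa (Entrez 12615, chromosome 5, 30666877 to 30674837, plus strand, 5 exons) had 544, 418, 656 and 260 counts, or 448, 483, 543 and 323 normalized counts. The cTKO female library was the highest and the cTKO male the lowest, so WT lay inside the cTKO range. In the authors' deposited table the log2 fold change was -0.10 (SE 0.38, 95% interval -0.84 to 0.64, adjusted p 0.898 by DESeq2). By limma it was 0.23 without the cTKO male library and -0.52 without the cTKO female library, and centred on genes with a mean of at least 100 it was 0.00. The summed normalized counts of 10 proliferation genes were 9214, 7458, 14300 and 9540. This sum was also highest in the cTKO female library, but in the cTKO male, lowest for Cenpa, it lay above both WT libraries. The part of cycling cells in the Cenpa values was not tested.

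**Figure D3:**
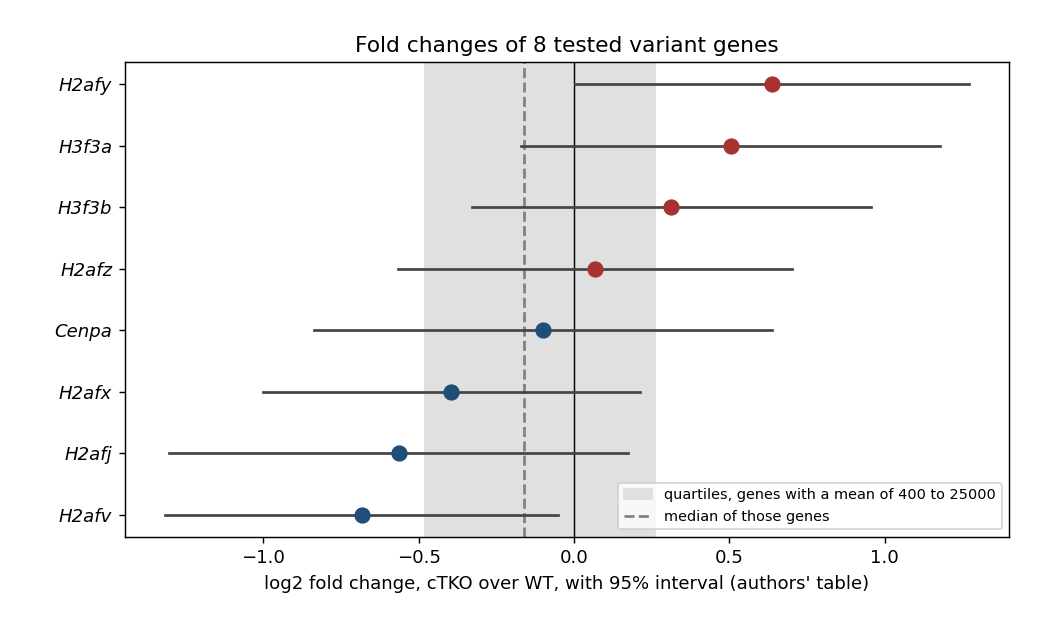
log2 fold change (cTKO over WT, authors' table) of the 8 tested variant genes with 95% intervals from the deposited standard errors; the grey band spans the quartiles (-0.48 to 0.26) and the dashed line the median (-0.16) of genes with a mean of 400 to 25000. The intervals of H2afv and H2afy alone leave out 0, and neither gene passed after adjustment.

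Levels of different genes can be set side by side per length of annotated exons, for their polyadenylated messages only. In WT the order by normalized counts per kb was H2afz (9705 on average), H3f3b (8307), H3f3a (2797), H2afy (2093), H2afj (1576), H2afv (1433), H2afx (815), Cenpa (284) and H2afy2 (0). In cTKO, H3f3b (10326) stood above H2afz (10175) and the order of the others was as in WT. In each genotype the libraries overlapped for H2afz and H3f3b, for H3f3a and H2afy, and for H2afj and H2afv, and the other neighbours did not overlap. Within libraries H3f3a exceeded H2afy in 4 of 4, H2afz exceeded H3f3b in 3 of 4 and H2afj exceeded H2afv in 2 of 4.

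As shares of the H2A variant messages per kb, H2afz held 65.2%, 58.9%, 61.6% and 64.8%. H2afv held 9.89% and 8.43% in WT and 5.76% and 5.46% in cTKO, and H2afj held 9.44% and 10.8% in WT and 5.27% and 7.59% in cTKO. H2afx was lower in the same sense, at 5.09% and 5.35% in WT and 4.49% and 3.46% in cTKO. The H2afy share was 10.4% and 16.5% in WT and 22.8% and 18.7% in cTKO, so it was higher in both cTKO libraries, while that of H2afz overlapped. Among H3 variants the share of H3f3b was 80.1% and 64.98% in WT and 69.8% and 71.7% in cTKO, and that of Cenpa 2.27% and 2.74% in WT and 2.79% and 1.14% in cTKO, both overlapping. Shares cover polyadenylated messages only and are fixed to sum to 100%. A test of 2 against 2 libraries could not go below an exact p of 0.333.

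**Figure D4:**
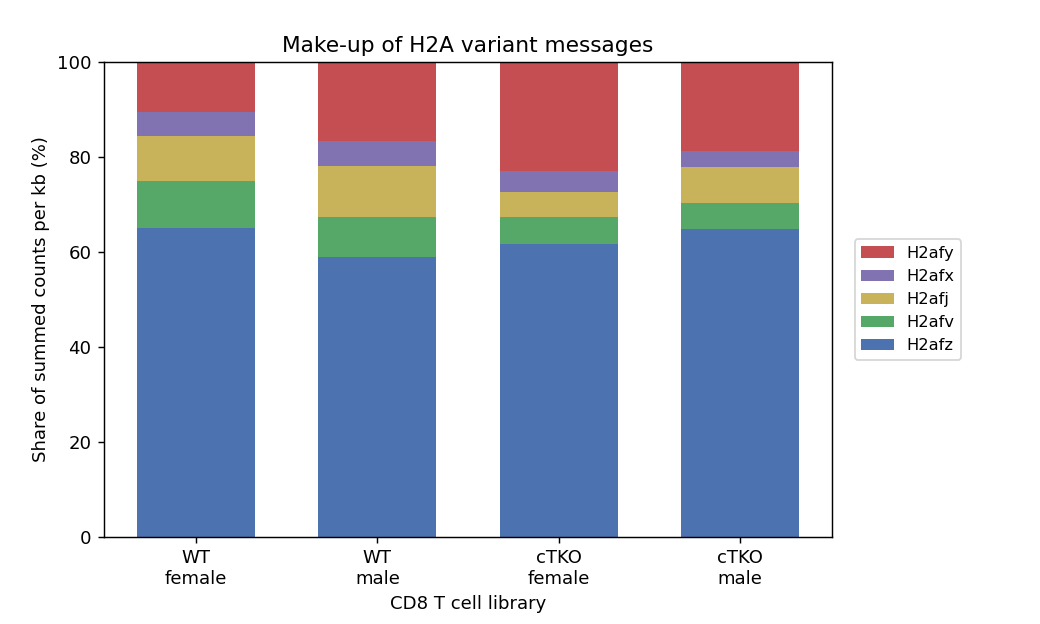
Share of each H2A variant gene in the summed normalized counts per kb of exon, 1 bar per CD8 T cell library (H2afy2, at most 0.0119%, is not visible). The H2afz share is 58.9% to 65.2% in all 4 libraries, and that of H2afy is 10.4% and 16.5% in WT and 22.8% and 18.7% in cTKO.

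The pattern of H2afv over the 4 libraries was most like that of Hdhd2, Pno1 and Slc29a1 among 10050 genes with a mean of at least 50. Their distances from H2afv were 0.0102, 0.0256 and 0.0281 on the log2 scale, over 4 libraries only. In the authors' deposited table their log2 fold changes were -0.68, -0.69 and -0.66. Closeness to the value of H2afv follows from the choice, because these genes were picked on the same 4 libraries.

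The lists below, other than proliferation and linker variants, held 79 tested genes linked to these variants. Of these, 8 passed in the authors' deposited table (10.1%), a share near the 13.4% of all tested genes. Of 10 H3.3 chaperone genes 0 were higher and 1 was lower in the authors' deposited table, beside 9.77% and 3.61% of all tested genes. Daxx, the H3.3 chaperone that works with ATRX, had 4151, 2727, 1807 and 1106 counts and fell by 1.19 on the log2 scale (SE 0.29, adjusted p 0.000944 by DESeq2) in the authors' deposited table. Both cTKO libraries lay well below WT, at 1497 and 1374 against 3418 and 3149 normalized counts. Atrx, the most expressed gene of the list, had a log2 fold change of 0.10 (adjusted p 0.868 by DESeq2) in the authors' deposited table. By limma the list had 1 lower call, Daxx, with all 4 libraries, beside 343 of 12913 genes lower with voom weights. This call did not hold when either WT library was left out.

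Of 24 genes of H2A.Z exchange and removal, 1 was higher and 1 lower in the authors' deposited table, beside the same 9.77% and 3.61%, with a median log2 fold change of -0.28. Epc1, a subunit of the TIP60 complex, had 423, 342, 913 and 539 counts and rose by 0.94 (adjusted p 0.0376 by DESeq2) in the authors' deposited table. Actr5, a subunit of INO80, had 1393, 876, 530 and 534 counts and fell by 0.97 (adjusted p 0.0373 by DESeq2) in the authors' deposited table. Morf4l1, the most expressed, had a log2 fold change of -0.76 (adjusted p 0.125 by DESeq2) in the authors' deposited table. In this list 11 genes lay lower and 3 higher in both cTKO libraries, beside 28.3% and 31.3% of all tested genes. By limma with all 4 libraries none of its 23 genes with recovered counts passed with voom weights or a trend. Of 12913 genes 1193 were higher and 343 lower with voom weights, and 1017 and 259 with a trend. With sex as a term 1 gene of the list was lower, beside 543 of 12913 genes.

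Of 16 genes of H2A.X signalling, 3 were higher and 2 lower in the authors' deposited table, again beside 9.77% and 3.61% of all tested genes. Prkdc (the DNA-PK catalytic subunit) rose by 1.31 (adjusted p 0.0168 by DESeq2), Atr by 1.12 (0.0455) and Mdc1, the reader of phosphorylated H2A.X, by 1.25 (0.0465), as log2 values of the authors' deposited table. Their counts were 658, 492, 2362 and 633 for Prkdc, 368, 265, 1086 and 341 for Atr, and 201, 176, 748 and 204 for Mdc1. The cTKO female library stood far above the other 3 in each, and it was also the highest in the summed proliferation genes, whose part in these values was not tested. Nbn, of the MRN complex, fell by 1.01 (adjusted p 0.0284 by DESeq2) and Ppp4c, a phosphatase that acts on phosphorylated H2A.X, by 0.97 (0.0369) in the authors' deposited table. By limma with all 4 libraries none of the 16 passed with voom weights or a trend. With sex as a term (chosen after seeing the data) 4 were higher and 2 lower, beside 1767 and 543 of 12913 genes.

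None of the 21 genes of CENP-A deposition and the inner kinetochore passed by DESeq2, beside 13.4% of all tested genes, and none by limma with all 4 libraries. In this list 7 genes lay higher and 4 lower in both cTKO libraries, beside 31.3% and 28.3% of all tested genes. Hjurp, the CENP-A chaperone, had 1083, 847, 2175 and 930 counts and a log2 fold change of 0.66 (adjusted p 0.188 by DESeq2) in the authors' deposited table. Again the cTKO female library was the highest. None of the 9 genes linked to macroH2A passed by DESeq2, beside the same 13.4%. The most expressed of them, Mbnl1, a splicing factor, had a log2 fold change of 0.25 (adjusted p 0.671 by DESeq2) in the authors' deposited table. Of 10 proliferation genes 4 were higher in the authors' deposited table, namely Ccna2 (log2 fold change 2.38), Top2a (2.02), Cdk1 (1.29) and Birc5 (1.20), beside 9.77% of all tested genes. By limma with all 4 libraries 2 were higher with voom weights or a trend and 5 with sex as a term. Over 12913 genes these fits called 1193, 1017 and 1767 higher. Fewer of the list were higher without the cTKO female library and more without the cTKO male library, as over all genes. In the authors' deposited table Mcm2, the most expressed, stood at a log2 fold change of 0.15.

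The replication-independent linker variants stood apart from the core variants in size. H1f0 had 113, 111, 12367 and 7501 counts and rose by 6.47 on the log2 scale (SE 0.32, adjusted p 4.71e-88 by DESeq2) in the authors' deposited table. H1fx had 0, 0, 16 and 16 counts (adjusted p 0.0149 by DESeq2 in the authors' deposited table). No core variant gene with an adjusted p had a 95% interval that reached beyond 2.41-fold higher (H2afy) or below 0.402 of the WT level (H2afv).

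**Figure D5:**
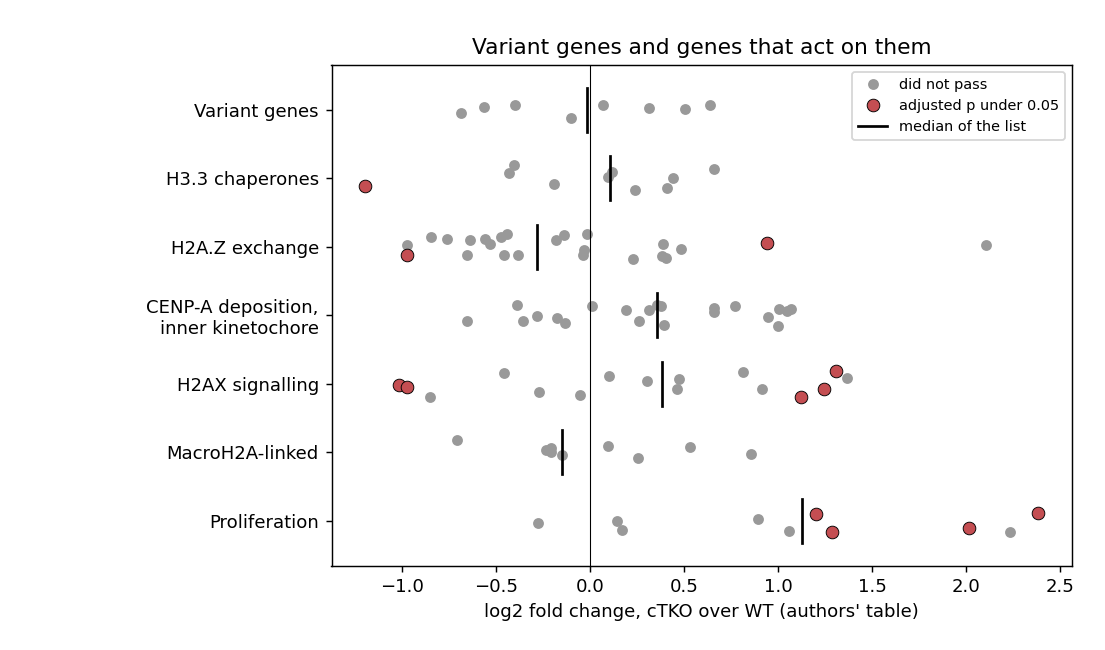
log2 fold change (cTKO over WT, authors' table) of the 8 tested variant genes and of the genes of 6 lists, 1 point per gene, with red points at an adjusted p under 0.05 and a line at the median of each list. No variant gene is red, and the red points of the lists include Daxx at -1.19 and Ccna2 at 2.38.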

How the data were processed

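The deposited table of CD8 T cells was made by the authors with STAR and DESeq2 on mm10 and GRCm38.p6, per the submitters' processing notes. Versions, annotation, counting tool and strand handling were not given in the sources used here. Its mean, per the file headers, is a signal that the authors made by dividing counts by size factors. The table's p-value (raw and adjusted), test score, log2 fold change and SE are as the authors deposited them, and calls use the adjusted p under 0.05.

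Counts per library were recovered as whole numbers that give the deposited mean and, with 2 groups in a negative binomial model whose dispersion yields the deposited SE, the deposited fold change within 7e-10 on the log2 scale. The dispersion chose among several sets for 51 genes, the mean alone decided for 2676, and 59 were not solved. Size factors were 1.214423 and 0.866028 (WT) and 1.207396 and 0.804969 (cTKO). Recovery and limma were tested on simulated data. limma 3.58.1 (R 4.3.3) was run on 12913 genes with recovered counts, with voom weights or on log2(normalized count + 0.5) with a trend. Intervals of 95% used the deposited SE.

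P-values weigh the difference between genotypes against the spread between 2 animals per genotype, estimated with information from other genes. Those 2 animals also differ in sex and library size. The 9 genes, the gene lists and the tests were chosen with earlier results of these data known. Named list genes are those that passed, at most 6 by smallest p, and the most expressed of each list. Alternatives were other thresholds, centring, filters, limma, each library left out, 1 added count in ratios and, chosen after seeing the data, sex as a term. Per-kb values use the union of GENCODE vM21 exons. One marker list is not reported here.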

Additional observations from a re-analysis of the deposited data

How the results depend on the processing

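No variant gene passed at thresholds of 0.1 or 0.01, after centring, without a filter, with a mean of at least 100, by limma with voom weights or a trend, or with sex as a term (added after seeing the data). That none passed holds for all 4 libraries, and not for every fit with a single library left out (limma). Such fits leave 1 library in 1 genotype, and for the variant genes they are given as effect sizes only. Log2 fold changes then ranged from -0.29 to 0.37 for H2afz, -0.94 to -0.44 for H2afv, -1.22 to -0.11 for H2afj, -0.50 to -0.29 for H2afx, 0.36 to 0.96 for H2afy, 0.17 to 0.87 for H3f3a, 0.02 to 0.60 for H3f3b and -0.52 to 0.23 for Cenpa, which centring moved to 0.0008. The log2 ratio difference ranged from 0.66 to 0.81 for H2afz to H2afv and from -0.81 to 0.36 for H3f3b to H3f3a, and 1 added count moved neither at 2 decimals. Of the 91 tested genes of all lists together, 10 were higher and 4 lower, beside 9.77% and 3.61% of all tested genes. Called lower were 7 at a threshold of 0.1, 1 after centring and 2 without a filter, while 3 were higher and 1 lower at 0.01, and 4 higher and 1 lower by limma with voom weights and with a trend, against 11 higher and 4 lower with sex as a term. With single libraries left out, 3 to 24 were higher and 0 to 11 lower, most without the cTKO male library. Fits without a library assume that the lone library varies like the others. The causes were not tested. No paired analysis was possible because the animal numbers of WT (1 and 4) and cTKO (5 and 10) differ, so that numbers pair no samples, and sex was used as the term instead. Depth limits H2afy2, and 2 animals per genotype limit the rest.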
